A study of Anas platyrhynchos with 18 samples.

Results

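The comparison is between the skin of white Pekin ducks 1 day after hatching (1DB) and at 4 weeks of age (4WK), in 3 small RNA libraries per stage. The study places the replacement of duckling feathers around 4 weeks of age. The 2 stages come from a course of 6 stages of feather development that starts in the embryo at 11EM, 15EM and 20EM and ends at 10 weeks (10WK). The skin was taken above the thoracic vertebrae, and the study names no treatment. Ducks were fed commercial diets from 1 day of age, so 1DB birds were sampled when this feeding began. Age and time on the diet thus cannot be told apart. The study does not give the sex of the birds at any stage, so the stages could not be matched for sex. Counts of a mature miRNA were summed over its hairpins and expressed relative to the library total, as counts per 1000000 counts (CPM). A miRNA was compared if it reached 1 CPM in 2 or more of the 6 libraries, which held for 230 of 304 with any count in these libraries and 353 in the whole series. The 74 that did not pass reached at most 2.73 CPM in a library. Just inside the filter were miR-1677-5p and miR-184-5p, with a second highest value of 1.13 and 1.14 CPM, and just outside it were miR-103-2-5p with 0.969 CPM and miR-101-1-5p with 0.909 CPM. Whether a library holds RNA of a single bird or of several is not stated in the labels, so p-values measure a spread between libraries. That spread was estimated over the 17 libraries used of all 6 stages, not over these 6 alone. The same holds for each standard error (SE) of a log2 fold change, which was calculated back from the edgeR test statistic.

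A miRNA is a short RNA cut from either arm of a hairpin (5p or 3p), and it lowers the output of messenger RNAs that pair with its seed, the bases 2 to 8 from its 5′ end. miRNAs that share a seed can share targets and are grouped into families. A feather follicle is a sleeve of epidermal keratinocytes around a dermal papilla, and the skin around it also holds dermal fibroblasts, vessels, blood and smooth muscle that moves the feathers, so a level in whole skin is an average over all of these.

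Mature sequences of miRNAs with clear changes and of some relatives are shown because shared seeds define some of the groups below. Other groups are lists by tissue or function. The sequences were taken from the study's annotation table of chicken miRNAs, with the seed in capitals. The first set holds miRNAs of keratinocytes and blood cells and miR-21-5p, which rose, apart from both forms of miR-205.
miR-31-5p: aGGCAAGAuguuggcauagcug
miR-31-3p: uGCUAUGCcaacauauugucauc
miR-203a: gUGAAAUGuuuaggaccacuug
miR-184-3p: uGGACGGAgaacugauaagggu
miR-205a: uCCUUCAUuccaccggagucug
miR-205b: cCCUUCAUuccaccggaaucug
miR-21-5p: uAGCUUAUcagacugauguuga
miR-142-5p: cCCAUAAAguagaaagcacuac
miR-142-3p: uGUAGUGUuuccuacuuuaugg

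The second set shows seeds shared by several members that rose: GAGAACU in miR-146, AGCACCA in miR-29, and GGCAGUG in miR-34 and miR-449.
miR-146a-5p: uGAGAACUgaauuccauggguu
miR-146b-5p: uGAGAACUgaauuccauaggcg
miR-29a-3p: uAGCACCAuuugaaaucgguu
miR-29b-3p: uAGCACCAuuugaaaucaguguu
miR-29c-3p: uAGCACCAuuugaaaucggu
miR-34a-5p: uGGCAGUGucuuagcugguuguu
miR-449a: uGGCAGUGuauguuagcuggu
miR-449c-5p: uGGCAGUGcguguuagcuggcugu

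The third set holds miRNAs that fell, among them pairs with the seeds ACAUUCA (miR-181) and AGUGCAA (miR-130).
miR-181a-5p: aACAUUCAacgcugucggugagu
miR-181b-5p: aACAUUCAuugcugucgguggg
miR-130a-3p: cAGUGCAAuauuaaaagggcau
miR-130b-3p: cAGUGCAAuaaugaaagggcgu
miR-455-5p: uAUGUGCCcuuggacuacaucg
miR-375: uUUGUUCGuucggcucgcguua
miR-489-3p: aGUGACAUcauauguacggcugc
miR-383-5p: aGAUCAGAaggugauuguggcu

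The depth was between 3512684 and 8568906 miRNA counts per library, so that 3 counts, the smallest amount taken as seen, were worth between 0.350 and 0.854 CPM. Libraries of 1 stage differed by a median of 0.155 to 0.249 log2 units per miRNA at 1DB and of 0.250 to 0.305 at 4WK. These medians cover only the 171 miRNAs with a mean of at least 10 CPM after scaling, not the rarer ones. Replicate 1 of 4WK is the only one of the 6 libraries with the other of the 2 classes of clean-read percent in the series, and replicate 2 of 4WK was the highest of the 4WK libraries for 22 of the 32 miRNAs that rose. Some miRNAs varied widely within a stage. miR-2954, chosen here after its values were seen, lay between 737 and 3356 CPM at 1DB and between 623 and 3934 CPM at 4WK. The cause of this spread was not tested. The epithelial miRNAs miR-205a and miR-203a were at no less than 7617 CPM in any of the 6 libraries. The liver miRNA miR-122-5p reached at most 19.6 CPM in these.

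A differentially expressed (DE) miRNA had an edgeR adjusted p under 0.05 over the 230 miRNAs tested and a fold change of at least 2. There were 55 DE miRNAs, 23.9% of those tested. Of these, 32 rose from 1DB to 4WK (13.9%) and 23 fell (10.0%). The DE miRNAs that rose took 2.71% ± 0.172 of the counts at 1DB (SD, n = 3, as for every SD below unless stated) and 10.6% ± 1.71 at 4WK, and those that fell went from 10.7% ± 0.790 to 5.70% ± 0.596. In 53 of the 55 the libraries of the stages did not overlap, against 52.2% of all 230 miRNAs (30.9% with 4WK above and 21.3% with 4WK below). The exceptions were miR-122-5p and miR-1454. The miRNAs named below for the largest fold changes were chosen among those without overlap, so its absence there was fixed by the choice. A further 39 miRNAs passed the adjusted p with a fold change under 2, of which 11 were higher and 28 lower at 4WK.

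The balance of rises and falls depended on the scale. Fold changes are from TMM-scaled counts, on which the median log2 fold change of all 230 miRNAs was −0.14. With library totals alone every fold change shifted by a median of 0.25, and 40 miRNAs rose and 16 fell (71.4% of DE miRNAs higher, against 58.2%). With counts scaled to the clean reads of each library the shift was −0.62, and 14 rose and 66 fell (17.5% higher), since miRNAs made up a smaller part of the clean reads in each 4WK library than in any 1DB library. Changes below are relative to the other miRNAs. The 28 miRNAs that were DE in the same direction under every scaling, tool, covariate and left-out library numbered 13 that rose and 15 that fell, with miR-31, miR-142, miR-146a, miR-184-3p and miR-203a among the first and miR-375, miR-489-3p, miR-383-5p, miR-455 and miR-130b-3p among the second.

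**Figure D1:**
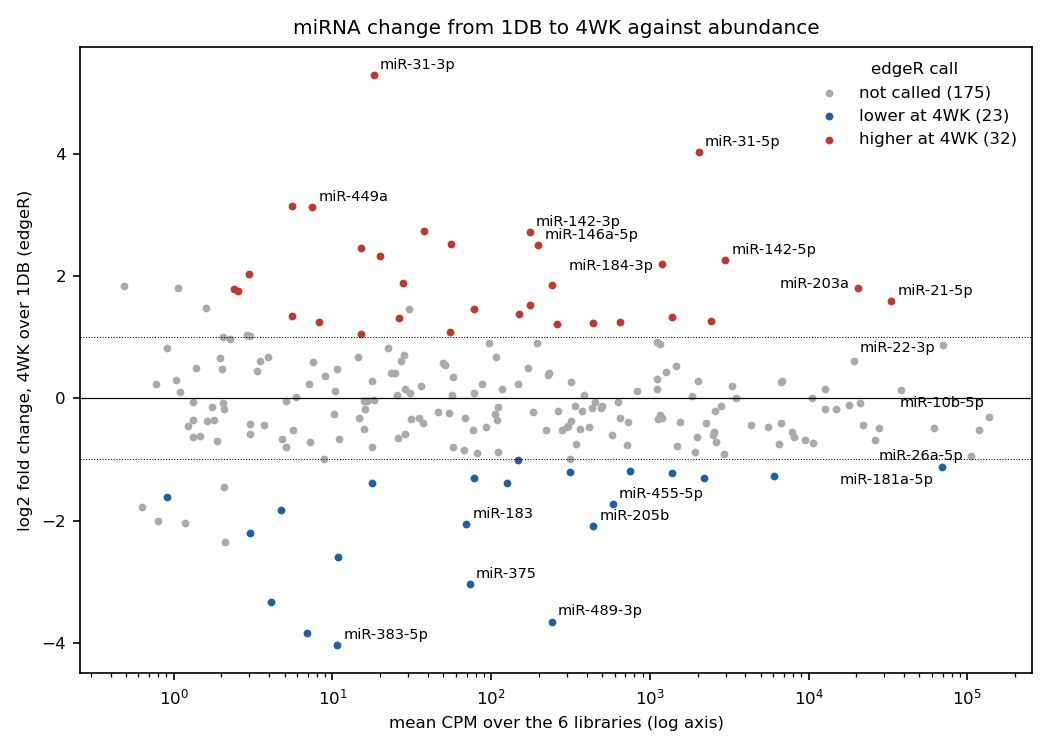
Log2 fold change from 1DB to 4WK (edgeR) against the mean CPM of the 6 libraries (log axis) for the miRNAs tested, coloured by call, with dotted lines at a 2-fold change; miR-490-5p, with no count at 4WK, is not drawn. The largest rises are both arms of miR-31, and the most abundant miRNAs, such as miR-10b-5p at a log2 fold change of −0.31, lie between the dotted lines with miR-181a-5p just below.

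DE miRNAs were found at every level of abundance. The share called was 22.03% under 10 CPM, 27.1% from 10 to 100 CPM, 29.4% from 100 to 1000 CPM, 19.5% from 1000 to 10000 CPM and 15.0% above 10000 CPM. In the last class 3 miRNAs passed, miR-21-5p and miR-203a upward and miR-181a-5p downward. The 10 most abundant miRNAs held 71.1% ± 1.13 of the counts at 1DB and 66.8% ± 1.17 at 4WK.

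The largest rises were those of miR-31, known in mammals from growing hair follicles and from keratinocytes of inflamed skin. miR-31-5p was at 187, 237 and 180 CPM in the 1DB libraries and at 3958, 4302 and 3353 CPM in the 4WK libraries. Every 4WK library was far above every 1DB library, and the log2 fold change was 4.02 ± 0.30 (SE; edgeR adjusted p = 4.5e-07), a 16.3-fold rise. The rarer strand miR-31-3p was at 0.646, 0.657 and 0.934 CPM at 1DB, near the floor, and at 24.9, 42.7 and 39.6 CPM at 4WK. Both arms of this hairpin thus moved upward, the 3p arm by 5.28 ± 0.46 on the log2 scale (edgeR adjusted p = 1.5e-06). Among all miRNAs, miR-31-5p went from rank 92 at 1DB to rank 32 at 4WK.

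Of the 9 listed miRNAs of keratinocytes and follicles, which include both arms of miR-31, 4 rose and 1 fell. Of all miRNAs tested 13.9% rose and 10.0% fell. The list had a median log2 fold change of 1.80 against −0.14 over all miRNAs tested. Without miR-31, 2 of the other 7 rose, 1 fell and 4 were not DE, with a median of 0.28. miR-203a, which drives keratinocytes of the mammalian epidermis out of the cell cycle and into differentiation, was at 7617, 7848 and 8558 CPM at 1DB and at 35293, 30935 and 33382 CPM at 4WK. The libraries of each stage lay close together, and it rose 3.48-fold (log2 fold change 1.80 ± 0.38, edgeR adjusted p = 0.0017), from rank 24 to rank 9. miR-184-3p, expressed in mammalian cornea and epidermis, was at 319, 479 and 310 CPM at 1DB and at 872, 2790 and 2342 CPM at 4WK. Replicate 1 was the lowest 4WK library but still above all of 1DB (log2 fold change 2.20 ± 0.52, edgeR adjusted p = 0.0038). In whole skin more cells that hold a miRNA and more of it per cell cannot be told apart.

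The 2 forms of miR-205, a miRNA of epidermal stem cells in the mouse, did not move alike. miR-205a, at a mean of 32964 CPM at 1DB and 43072 CPM at 4WK, was not DE (log2 fold change 0.13 ± 0.30, edgeR adjusted p = 0.74), and its sign turned with scaling to clean reads. miR-205b was at 648, 734 and 685 CPM at 1DB and at 8.08, 323 and 248 CPM at 4WK. Its log2 fold change was −2.09 ± 0.72 (edgeR adjusted p = 0.033), with replicate 1 of 4WK far below the other two. Without that library the log2 fold change was −1.52 (edgeR adjusted p = 0.00092), while the call was lost without any 1DB library or replicate 3 of 4WK (adjusted p between 0.055 and 0.066). The forms differ by the substitutions U1C and G18A, counted from the 5′ end of miR-205a, so the assignment of reads between them is uncertain. The other listed miRNAs, both arms of miR-24 and miR-184-5p, were not DE.

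The miR-200 family, which keeps cells epithelial by repressing the ZEB factors, had 5 of its 6 tested members higher at 4WK. Of all miRNAs tested 13.9% rose. The log2 fold changes of all 6 lay between 0.92 and 1.76. The 6 are both arms of miR-200a, miR-200b and miR-429, so they are not independent readings. The list was also chosen with earlier results of these data known, so its share is descriptive. The summed level of the 6 was 1800 ± 56.4 CPM at 1DB and 4819 ± 463 CPM at 4WK. miR-200a-3p was at 673, 688 and 714 CPM at 1DB and at 1653, 2366 and 2171 CPM at 4WK, without overlap (log2 fold change 1.32 ± 0.27, edgeR adjusted p = 0.0016). miR-200b-3p, which shares the seed AAUACUG with miR-429-3p, rose by 1.25 ± 0.35 on the log2 scale (edgeR adjusted p = 0.012), and miR-429-3p was at 0.92 ± 0.31 (adjusted p = 0.033), under the fold threshold. With counts scaled to clean reads the 6 log2 fold changes were still positive, with a median of 0.66, and none was DE.

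**Figure D2:**
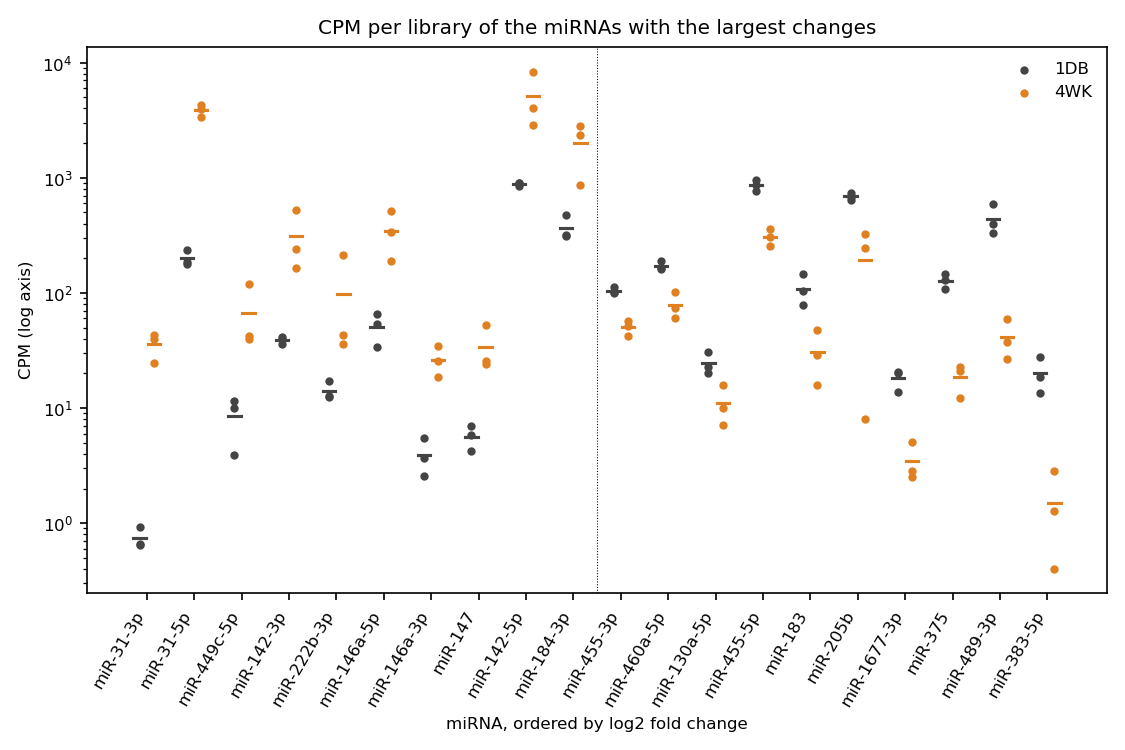
CPM (log axis) in each library of 1DB (grey points) and 4WK (orange points) for the 10 DE miRNAs with the largest rise and the 10 with the largest fall whose mean over the 6 libraries was 10 CPM or more and whose stages did not overlap; bars are means of 3 libraries. The single point of miR-205b at 8.08 CPM and the high point of miR-222b-3p at 215 CPM stand apart from the other 4WK libraries.

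All 3 tested leukocyte miRNAs, among them both arms of miR-142, rose, where 13.9% of all miRNAs tested rose. Their median log2 fold change was 2.27. The summed level of the list went from between 1014 and 1104 CPM at 1DB to 4727, 9308 and 3286 CPM at 4WK. miR-142-5p, made in blood-forming cells, was at 895, 905 and 846 CPM at 1DB and at 4050, 8319 and 2875 CPM at 4WK. The 1DB libraries were nearly equal, the 4WK libraries spread widely above them, and the log2 fold change was 2.27 ± 0.33 (edgeR adjusted p = 0.00011). miR-142-3p, its other arm, was at 41.7, 36.3 and 40.0 CPM and then at 240, 529 and 163 CPM (log2 fold change 2.72 ± 0.32, edgeR adjusted p = 2.0e-05).

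miR-223, a miRNA of granulocytes and macrophages, was at 167, 118 and 128 CPM at 1DB and at 437, 460 and 248 CPM at 4WK. It rose 2.32-fold (log2 fold change 1.21 ± 0.27, edgeR adjusted p = 0.0023), and its call was lost with scaling to clean reads (0.63, adjusted p = 0.16). miR-155, induced in activated lymphocytes and macrophages, was at 0 in all of the 6 libraries but replicate 2 of 4WK, which had 0.182 CPM, under the floor. Red blood cell miRNAs showed no call: miR-451 was between 9047 and 12266 CPM at 1DB and between 12680 and 16886 CPM at 4WK (log2 fold change 0.15 ± 0.33, edgeR adjusted p = 0.73).

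Among miRNAs that regulate inflammation, 6 of 9 rose and none fell, where 13.9% of all miRNAs tested rose and 10.0% fell. Their median log2 fold change was 1.59. The 9 include both arms of miR-21, miR-146a, miR-146b and miR-146c, so they are not independent readings. The most abundant was miR-21-5p, which is raised in many growing and inflamed tissues. Its level was 16872, 14125 and 12672 CPM at 1DB and 39385, 67414 and 48829 CPM at 4WK, a rise of 3.00-fold without overlap (log2 fold change 1.58 ± 0.18, edgeR adjusted p = 1.7e-05), from rank 14 to rank 6. With scaling to clean reads the log2 fold change was 0.93 (adjusted p = 0.024), under the fold threshold. miR-21-3p, its other arm, rose by 1.85 ± 0.22 on the log2 scale (edgeR adjusted p = 2.1e-05), and it was DE under every scaling, tool, covariate and left-out library.

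miR-146a, which is switched on by NF-kB in mammals and dampens Toll-like receptor signalling, rose on both arms. miR-146a-5p was at 34.1, 65.2 and 53.9 CPM at 1DB and at 335, 515 and 188 CPM at 4WK (log2 fold change 2.50 ± 0.57, edgeR adjusted p = 0.0031). miR-146b-5p, which differs from it by G18A, U21C and U22G counted from the 5′ end, was more abundant: 1081, 1196 and 1446 CPM at 1DB and 3864, 3858 and 3044 CPM at 4WK (log2 fold change 1.27 ± 0.23, edgeR adjusted p = 0.00064). The third miRNA with this seed, miR-146c-5p, was the most abundant of the family but under the threshold at 0.61 ± 0.24 on the log2 scale (adjusted p = 0.060). miR-147, induced in mouse macrophages through Toll-like receptors, was at 6.95, 4.21 and 5.84 CPM at 1DB and at 24.1, 52.9 and 25.6 CPM at 4WK (log2 fold change 2.33 ± 0.43, edgeR adjusted p = 0.00082). In miR-142, miR-146a and miR-147 replicate 2 was the highest of the 4WK libraries, as it was for 22 of the 32 miRNAs that rose. The part of leukocytes in these rises was not tested.

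miR-222b-3p was highest in that library too, with 12.4, 17.2 and 12.8 CPM at 1DB and 43.0, 215 and 36.2 CPM at 4WK. Its log2 fold change of 2.53 ± 0.59 (edgeR adjusted p = 0.0035) became 1.26 without replicate 2 of 4WK and stayed DE (adjusted p = 0.029). The abundant miRNAs with the same seed, GCUACAU, were lower at 4WK on the TMM scale, under the fold threshold: miR-222a was at −0.89 ± 0.21 (edgeR adjusted p = 0.0036) and miR-221-3p at −0.32 ± 0.20 (adjusted p = 0.22). miR-222b-3p differs from miR-222a by G12A, C13U and U23A, counted from the 5′ end.

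All 3 main strands of the miR-29 family, known for repressing collagens, rose, where 13.9% of all miRNAs tested rose. The 3 are not independent readings. The sequence of miR-29c-3p is that of miR-29a-3p without its last base, so the assignment of reads between these is uncertain. miR-29a-3p was at 94.5, 80.7 and 64.3 CPM at 1DB and at 262, 282 and 268 CPM at 4WK (log2 fold change 1.52 ± 0.31, edgeR adjusted p = 0.0016). miR-29b-3p rose by 1.89 ± 0.39 and miR-29c-3p by 1.46 ± 0.31 on the log2 scale (edgeR adjusted p = 0.0016 and 0.0017). As a seed family they went from 127 ± 20.97 to 435 ± 28.1 CPM, and the 4WK libraries lay within 402 to 454 CPM. The 2 tested partner strands were not DE, at 0.49 and 1.01 on the log2 scale. Scaled to clean reads, 1 of the 3 was DE.

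The miR-34 and miR-449 family is linked in mammals to the arrest of the cell cycle through p53 and to ciliated epithelia. It had 4 of 5 tested members higher at low levels, where 13.9% of all miRNAs tested rose. miR-449a was at 1.29, 1.05 and 1.52 CPM at 1DB and at 19.0, 10.4 and 11.4 CPM at 4WK (log2 fold change 3.13 ± 0.85, edgeR adjusted p = 0.0095). miR-449c-5p was at 3.88, 11.6 and 9.92 CPM and then at 119, 40.2 and 41.9 CPM (log2 fold change 2.73 ± 0.91, edgeR adjusted p = 0.029). Replicate 1 of 4WK was the highest for both and for the 2 arms of miR-34a, and without it 1 of the 5 was DE.

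**Figure D3:**
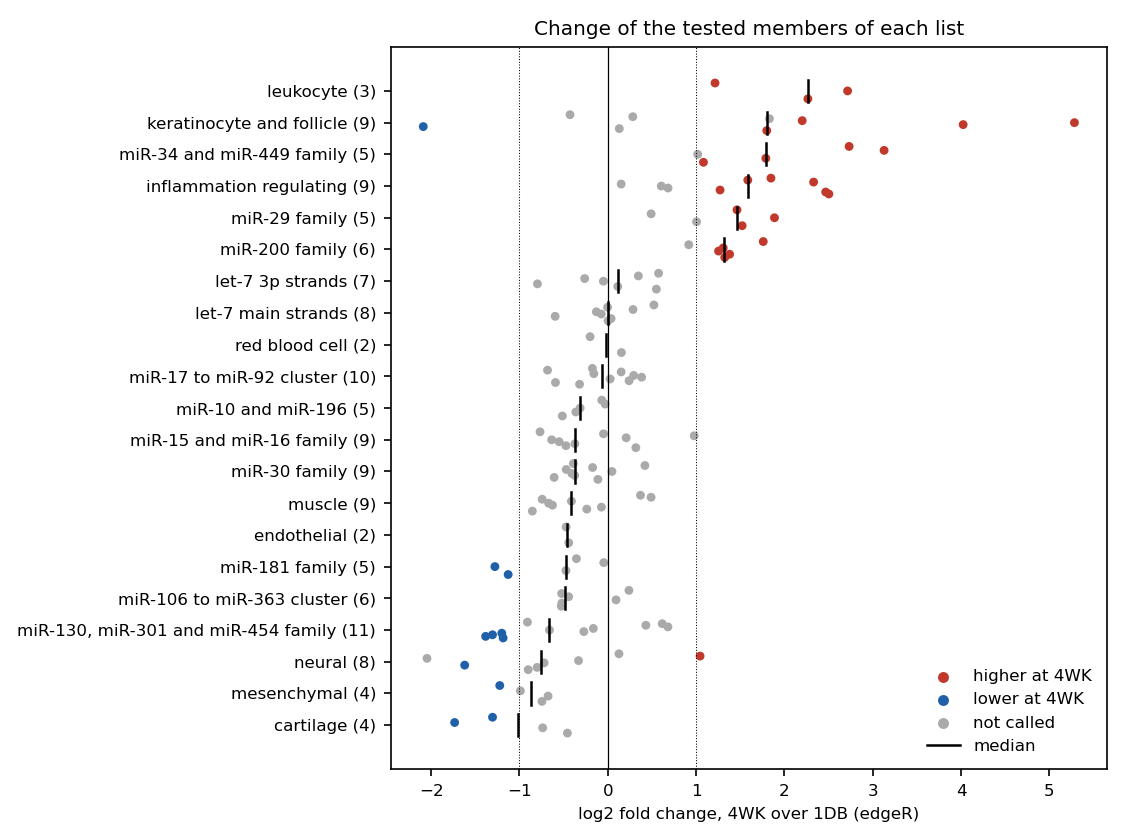
Log2 fold change from 1DB to 4WK of the tested members of each list with at least 2 tested members (number in brackets), coloured by call, with the median as a black bar and dotted lines at a 2-fold change. The leukocyte list had a median of 2.27, the keratinocyte list 1.80 and the cartilage list −1.02.

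The falls included rare miRNAs that almost vanished. miR-383-5p was at 13.6, 28 and 18.6 CPM at 1DB and at 0.404, 1.27 and 2.85 CPM at 4WK (log2 fold change −4.04 ± 0.53, edgeR adjusted p = 5.0e-05). miR-490-3p, chosen here after its values were seen, was at 16.5, 6.97 and 14.8 CPM and then at 0.606, 1.64 and 0.854 CPM (log2 fold change −3.85 ± 0.54, edgeR adjusted p = 0.00010). The 4WK libraries of both were at most a few times the floor. miR-490-5p, from the same hairpin, had no count in any 4WK library, which was at least 2.39-fold lower than its 1.60 CPM at 1DB, against a floor of 3 counts per library.

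miR-489-3p, known in mice for keeping muscle stem cells at rest, fell from 331, 589 and 400 CPM to 26.5, 37.8 and 58.9 CPM. No library overlapped, and the fall was 12.6-fold (log2 fold change −3.65 ± 0.65, edgeR adjusted p = 0.00059). Muscle miRNAs as a list had no call among the 9 tested: miR-133a-3p, of striated and smooth muscle, was at 8454, 9400 and 9769 CPM at 1DB and at 6130, 4796 and 10218 CPM at 4WK (log2 fold change −0.63 ± 0.58, edgeR adjusted p = 0.42). Its 4WK libraries thus spanned the 1DB range.

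miR-375, known in mammals from pancreatic islets and from neuroendocrine cells such as the Merkel cells of the skin, fell from 109, 129 and 146 CPM to 12.1, 22.5 and 21.1 CPM. That was an 8.24-fold fall without overlap (log2 fold change −3.04 ± 0.56, edgeR adjusted p = 0.00082). miR-183, of sensory cells, fell from 145, 103 and 78.4 CPM to 15.96, 47.5 and 29.0 CPM (log2 fold change −2.06 ± 0.49, edgeR adjusted p = 0.0038). Of 8 tested neural miRNAs 1 rose and 1 fell, miR-153-3p and miR-124c-3p, both with adjusted p = 0.044. Of all miRNAs tested 13.9% rose and 10.0% fell. The call of miR-153-3p was lost without any 1 library other than replicate 2 of 1DB. That of miR-124c-3p was lost without any 1 other than replicate 3 of 1DB. The most abundant of the neural miRNAs, miR-128-3p, was at −0.72 ± 0.13 (edgeR adjusted p = 0.00083), under the fold threshold.

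Of 4 tested miRNAs of cartilage 2 fell and of 4 of mesenchyme 1 fell, where 10.0% of all miRNAs tested fell; with library totals alone these were 2 and 0. miR-455-5p, which lies in a collagen gene in mammals, was at 949, 766 and 860 CPM at 1DB and at 255, 362 and 307 CPM at 4WK (log2 fold change −1.73 ± 0.25, edgeR adjusted p = 0.00011). With miR-455-3p (−1.31 ± 0.29, edgeR adjusted p = 0.0023), 2 of the 4 cartilage miRNAs fell, while both arms of miR-140 did not pass. miR-214, made together with miR-199 in mesenchymal cells, was at 1772, 1885 and 1794 CPM at 1DB and at 900, 985 and 889 CPM at 4WK. Its log2 fold change was −1.22 ± 0.14 (edgeR adjusted p = 1.7e-05) and became −0.97 with library totals alone, under the fold threshold. miR-199-3p was at −0.68 ± 0.14 (edgeR adjusted p = 0.0016), so 1 of the 4 mesenchymal miRNAs was DE.

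The abundant falls were those of miR-181, a family known from lymphocyte development that is expressed in many tissues. miR-181a-5p was at 83543, 88244 and 98421 CPM at 1DB and at 55042, 46501 and 45832 CPM at 4WK, the largest loss of counts of any DE miRNA. The log2 fold change was −1.13 ± 0.13 (edgeR adjusted p = 1.7e-05), and with library totals alone it was −0.87, under the fold threshold. miR-181b-5p was at 7886, 7846 and 8495 CPM and then at 5080, 3961 and 2883 CPM (log2 fold change −1.28 ± 0.18, edgeR adjusted p = 0.00011). The other 3 members, all partner strands, were not DE.

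In the family of miR-130, miR-301 and miR-454, 4 of 11 members fell and none rose, where 10.0% of all miRNAs tested fell. The median log2 fold change was −0.66. The 4 that fell were both arms of miR-130a and miR-130b. miR-130b-3p was at 2913, 3059 and 2949 CPM at 1DB and at 1467, 1391 and 1429 CPM at 4WK, with close replicates at both stages (log2 fold change −1.31 ± 0.16, edgeR adjusted p = 2.1e-05). miR-130a-3p fell by 1.19 ± 0.17 on the log2 scale (edgeR adjusted p = 0.00011). It differs from miR-130c-3p by A10G alone, counted from its 5′ end, and miR-130c-3p was at −0.27 ± 0.14 (adjusted p = 0.13). The assignment of reads between these is uncertain. Without replicate 1 of 4WK, 6 of the 11 fell, and with library totals alone 2.

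Among falls at a mean of 10 CPM or more, miR-1677-3p and miR-460a-5p were at −2.60 ± 0.45 and −1.38 ± 0.26 on the log2 scale (edgeR adjusted p = 0.00044 and 0.00088). miR-122-5p was DE on few counts: it was at 19.6 CPM in replicate 2 of 1DB, 0.646 and 2.22 CPM in the other 1DB libraries and at most 1.64 CPM at 4WK, and its log2 fold change of −3.34 (edgeR adjusted p = 0.049) became −1.08 without that library (adjusted p = 0.54). The call was also lost without any 1 of the 4WK libraries (adjusted p between 0.070 and 0.13).

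The large, widely expressed families showed no call. None of the 10 tested members of the miR-17 to miR-92 cluster, the 6 of its paralog, the 9 of miR-15 and miR-16, the 8 main strands and 7 partner strands of let-7, the 9 of miR-30 or the 5 of miR-10 and miR-196 was DE, and their list medians lay between −0.48 and 0.11. With library totals alone 1 member, of miR-15 and miR-16, was higher, and with clean reads each list had between 1 and 4 members lower. The sign of several changed with the scale: the let-7 main strands had 4 positive and 4 negative values here, 7 and 1 with library totals alone and 0 and 8 with scaling to clean reads. These are not all separate miRNAs. The main strands let-7a-5p and let-7j-5p, at 0.0032 and −0.0021 on the log2 scale, have the same sequence. So do the partner strands let-7a-3p and let-7k-3p. miR-92-3p passed the adjusted p at a fold under 2, from a mean of 30205 to 22388 CPM (log2 fold change −0.68 ± 0.25, edgeR adjusted p = 0.044). It was not the only member with a change under the fold threshold, and these went in both directions. On the log2 scale let-7c-5p was at −0.60 ± 0.13, miR-20b-5p at −0.52 ± 0.14, miR-15c-5p at −0.55 ± 0.18 and let-7k-5p at 0.52 ± 0.18.

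Of the most abundant miRNAs, miR-10b-5p kept rank 1 with 139782 ± 7867 CPM at 1DB and 133345 ± 6167 CPM at 4WK (log2 fold change −0.31 ± 0.17, edgeR adjusted p = 0.17). miR-10a-5p, which differs from it by U12A counted from its own 5′ end, was at −0.51 ± 0.33 (adjusted p = 0.23). miR-26a-5p came close to the fold threshold, with 131830 ± 10549 and 80779 ± 7021 CPM (log2 fold change −0.95 ± 0.14, edgeR adjusted p = 0.00011). miR-22-3p was higher, from 44645 ± 3069 to 96511 ± 11090 CPM and from rank 6 to rank 3 (log2 fold change 0.87 ± 0.15, edgeR adjusted p = 0.00044). Both had no overlap between stages. The mean CPM of miR-22-3p, which is relative to library totals, rose by more than 2-fold. Its TMM-scaled change was under the fold threshold, so its place at the threshold depended on the scale. miR-27b-3p, miR-148a-3p and the endothelial miR-126-5p were at −0.48, −0.49 and −0.44 on the log2 scale, with adjusted p = 0.057, 0.017 and 0.040.

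The 5p and 3p arms of a hairpin are cut from 1 precursor, so they give a second reading of it. Both arms were tested for 73 miRNA names. In 67 of these both arms came from the same single hairpin, in 3 from the same set of several hairpins, and in 3, such as miR-181a, from different sets. In 11 both arms were DE, all from a single hairpin, 7 upward and 4 downward, and in none in opposite directions. In 10 a single arm was DE, and the log2 fold change of the other arm had the same sign in all 10. Signs also matched in most of the 52 pairs with neither arm DE, so a match is not particular to DE miRNAs. Among the exceptions was miR-148a, with 0.27 for the 5p arm and −0.49 for the 3p arm. The median absolute difference between arms was 0.28 log2 units. Among the pairs with a single DE arm, miR-181a-5p (−1.13) and miR-181a-3p (−0.47) had the largest difference in mean CPM, with means of 69597 and 301 CPM.

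**Figure D4:**
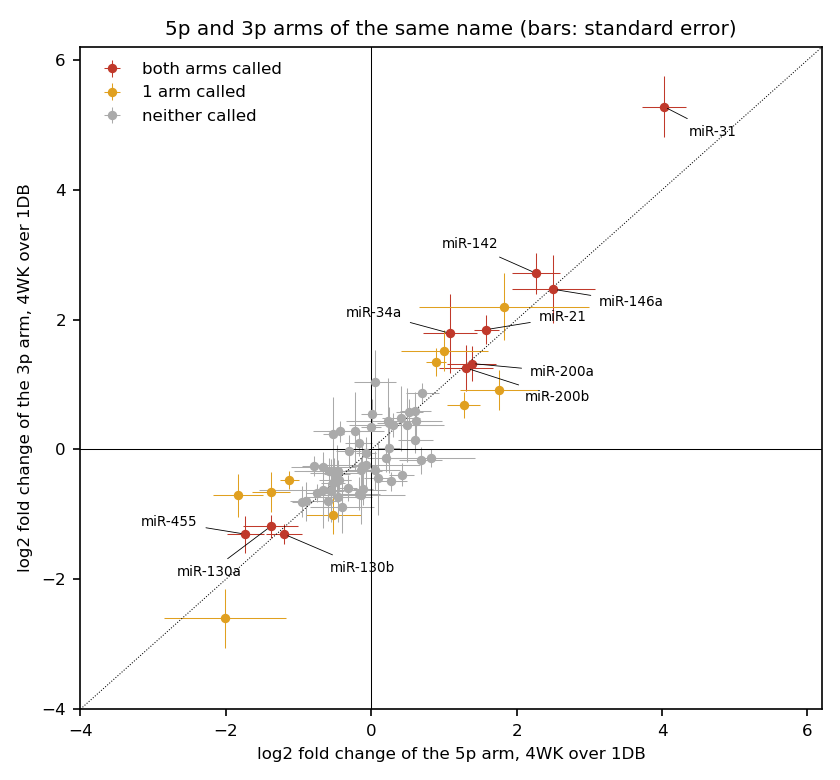
Log2 fold change of the 3p arm against that of the 5p arm for miRNA names with both arms tested, with standard errors, coloured by how many arms were called; the dotted line marks equal change, and miR-490, with a 5p arm at 0 at 4WK, is not drawn. In each pair with both arms called the arms have the same sign, as in miR-31 at 4.02 and 5.28 and miR-455 at −1.73 and −1.31.

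Shared seeds were compared as well. The 230 miRNAs held 177 different seeds, of which 28 were shared by at least 2 miRNAs. Of these, 5 had at least 2 DE members, 4 had exactly 1 and 19 had none. None had members DE in both directions, which only the 5 could show. Members of a seed did not always move alike. Log2 fold changes ran from −0.89 to 2.53 for GCUACAU and from −2.09 to 0.13 for CCUUCAU, but from 1.46 to 1.89 for AGCACCA. Members with a shared seed are often near or exact copies, so their counts are not independent readings.

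Of the 230 miRNAs, 3 were DE between 4WK and 10WK (1.30%; miR-142-3p and miR-9-3p lower, miR-30e-5p higher), against 67 between 20EM and 1DB (29.1%; 11.7% upward, 17.4% downward) and 51 between 1DB and 10WK (22.2%; 8.7% upward, 13.5% downward). These comparisons share libraries, so their values are given side by side. They could not be matched for the sex of the birds. For the 32 that rose, the median log2 fold change was 1.80 from 1DB to 4WK, −0.57 from 4WK to 10WK and 1.14 from 1DB to 10WK. The 23 that fell had medians of −1.73, 0.11 and −1.64. Tested directly, the step from 1DB to 4WK differed from the step to 10WK for 47 of all 230 miRNAs (20.4%), a number that became 14 without replicate 2 of 4WK, and from the step from 20EM (n = 2) to 1DB for 71 (30.9%).

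In some of the miRNAs that rose, the levels at 20EM were also above those at 1DB. Of the 32 that rose, 13 were DE downward from 20EM to 1DB and 7 were DE upward. Both steps use the 1DB libraries, so low values there favour a fall followed by a rise. miR-31-5p was at a mean of 1322 CPM at 20EM, 201 CPM at 1DB, 3871 CPM at 4WK and 3739 CPM at 10WK. miR-203a followed the same course with 30285, 8008, 33203 and 25744 CPM. miR-200a-3p, at 1959 CPM at 20EM, 692 CPM at 1DB and 2063 CPM at 4WK, did likewise. In these 3 the 1DB libraries were the lowest of the 4 stages.

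Other courses had other shapes. miR-29a-3p had a higher mean at each later stage of these 4, with 20.1 CPM at 20EM, 79.8 CPM at 1DB, 271 CPM at 4WK and 533 CPM at 10WK. miR-21-5p and miR-142-5p had their highest means at 4WK: miR-21-5p was at 26470 CPM at 10WK, a log2 fold change of −0.83 ± 0.18 (edgeR adjusted p = 0.016), and miR-142-5p at 2110 CPM (−1.11, adjusted p = 0.074). Of the falls, miR-375 and miR-489-3p were high at 1DB alone of these 4 stages: miR-375 was at 21.4 CPM at 20EM and 15.0 CPM at 10WK, and miR-489-3p at 81.7 and 35.7 CPM. miR-455-5p had a lower mean at each later stage, with 1343 CPM at 20EM, 858.5 CPM at 1DB, 308 CPM at 4WK and 238 CPM at 10WK.

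**Figure D5:**
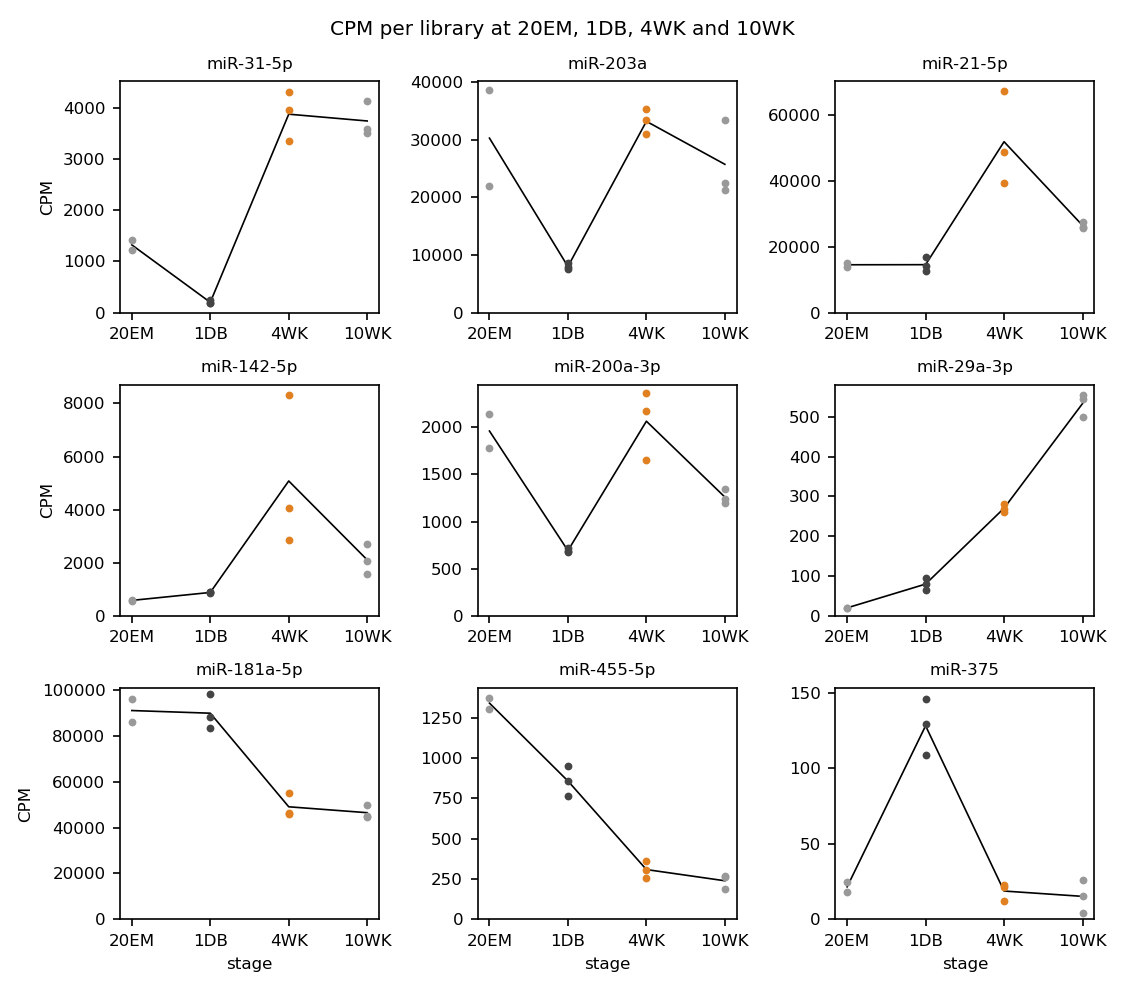
CPM in each library at 20EM (n = 2), 1DB, 4WK and 10WK (n = 3 each) for 9 miRNAs, with lines through the means; 1DB is dark grey and 4WK orange. miR-31-5p, miR-203a and miR-200a-3p have their low point at 1DB, miR-375 has its high point there, and miR-21-5p and miR-142-5p have theirs at 4WK.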

How the data were processed

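Small RNA of Pekin duck skin was sequenced from 3 libraries per stage. The authors trimmed and filtered the reads, matched them to miRBase entries of the chicken, and deposited unnormalized counts for every arm of every hairpin. Mismatches were allowed, so identical and near-identical miRNAs can share reads. Here counts were summed per miRNA and a missing line was given 0. Replicate 2 of 20EM was not used here, which leaves 17 libraries.

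The quasi-likelihood test of edgeR 4.0.16 (R 4.3.3; TMM scaling, Benjamini-Hochberg adjustment, two-sided) was fitted once to the 6 stages, and 4WK was set against 1DB. The fit was also run on simulated data, with no change or with equal numbers of rises and falls in most miRNAs. That setting differs from these data, so it cannot vouch for the calls or their balance. Alternatives were DESeq2 1.42.0, limma 3.58.1 on log2 values (a CPM of 0 replaced by 0.01), other scalings, filters, thresholds, covariates and left-out libraries. Scaling by clean reads, and the class of clean-read percent used as a covariate, rest on the study's read table. The class was set here by a cut on that percent and is not a sequencing run named in the labels. With 3 libraries against 3, an exact permutation test of a single miRNA cannot go below p = 0.10. The miRNAs and lists were chosen with earlier results of these data known. Named were the 10 DE miRNAs per direction with the largest fold change at a mean of at least 10 CPM and without overlap, the 5 per direction with the largest difference in CPM, the 10 most abundant, examples of each list, and partner arms; DE miRNAs outside these, such as miR-200b-3p, miR-130a-3p, miR-21-3p and miR-1454, and uncalled relatives with a shared seed were added after their values were seen. The figures were drawn with matplotlib 3.10.9.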

Additional observations from a re-analysis of the deposited data

How the results depend on the processing

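At this depth a level under 0.350 to 0.854 CPM, 3 counts, was not told apart from 0. The number of DE miRNAs (55) lay between 47 and 58 when each library was left out in turn, and 44 were DE each time. It was 55 with DESeq2, 56 with limma, 56 without a filter (of 304 tested), 47 with a stricter filter (10 CPM or more in 3 or more libraries) and 52 with only the 6 libraries. The class of clean-read percent as a covariate gave 51. Replicate numbers did not pair the libraries (correlations of same-numbered deviations between −0.119 and −0.095 over 171 miRNAs); with the replicate number as a block, 51 were DE, also with only the 6 libraries, an alternative added after seeing the data. An absolute log2 fold change over 2 left 23, of which 13 were higher and 10 lower. Scaling to clean reads gave 14 higher and 66 lower; for the differences between steps, where it was added after seeing the data, it gave 19 in place of 47 against the next step and 36 in place of 71 against the previous one. The count against the next step was between 14 and 41 with a library left out, and that against the previous step between 62 and 84. The list counts without replicate 1 of 4WK were also added after seeing the data. In each case the cause was not tested.

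Of the 43 named DE miRNAs 22 stayed DE, at the thresholds of 0.05 and 2-fold, under every tool, scaling, filter that kept them, covariate, block and left-out library, and none changed sign. Log2 fold changes that changed sign were all of uncalled miRNAs. With clean reads they were −0.55 for miR-205a, −0.44 for miR-16-5p, −0.26 for let-7j-3p and −0.45 for miR-451. The stricter filter gave −0.0347 for miR-205a and −0.0371 for miR-451. For miR-30a-5p, library totals gave 0.12, no filter 0.0412 and limma 0.14. For let-7f-5p, library totals gave 0.18, no filter 0.0774, the 6 libraries 0.0235, these with the block 0.0192, DESeq2 0.0423 and limma 0.17, and with a library left out it lay between −0.2031 and 0.00770.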
